A study of Mus musculus with 16 samples.

Results

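The gained regions described here were stretches of open chromatin in mouse bone marrow cells that were called as peaks in more libraries after interleukin-1β (IL-1β) than before it. The assay was ATAC-seq, in which a transposase cuts accessible DNA and the cut sites pile up into peaks. Each of the 16 deposited peak lists was cut to its strongest distinct peaks by the authors' −log10 p, as many as the shortest list holds, and the peaks were merged on the main chromosomes. Of 64318 merged regions, 1244 were called in at least 5 more of the 8 IL-1β libraries than of the 8 baseline libraries. The regions were chosen by that difference in calls, so every IL-1β against baseline value here is a description without a test.

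The 4 groups, with 4 libraries each, were control mice at baseline, control cells after IL-1β, diabetic mice at baseline and diabetic cells after IL-1β. All animals were male C57Bl/6 mice, and streptozotocin, a toxin of insulin-producing cells, made the diabetic group and was given to no control. Bone marrow was depleted of cells bearing CD3, CD4, B220, Ter119 or Gr1, and the submitters called what was left HSC, although such a pool also holds committed progenitors. Each sample was divided, so a baseline and an IL-1β library with the same number came from the same mouse. Cells of the baseline libraries were lysed without culture, and the rest were kept in culture with 10 ng/mL IL-1β for 6 h, so the cytokine and the culture cannot be told apart. A replicate held 50000 cells.

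IL-1 is an alarm cytokine of innate immunity. Its receptor signals through MyD88 and the IRAK kinases to the kinase complex that frees NF-κB from its inhibitors, and through MAP kinases to AP-1, the family of Fos and Jun dimers. Target genes include their own brakes, such as deubiquitinating enzymes and ribonucleases that end the signal. In bone marrow progenitors the cytokine is known for pushing cells towards granulocytes and monocytes. Distal enhancers of such genes are often closed in resting cells and open when these factors bind.

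The labelled cell pool was compared with marker genes by asking whether a gene had, within 1 kb of its body, a region called in all 16 libraries. This held for 12 of 28 stem cell genes, among them Hlf, Meis1, Fgd5 and Erg, and 5 of the 28 had no called region. It held for 24 of 29 mature neutrophil genes, 16 of 20 monocyte and macrophage genes and 14 of 20 erythroid genes. It held for 4 of 21 T and NK cell genes and 4 of 15 B cell genes. For granulocyte-monocyte regulators it held for 19 of 23, for primary granule and progenitor genes for 4 of the 11 found in the annotation. Dendritic cell genes had 14 of 19, megakaryocyte genes 5 of 15, and mast cell and basophil genes 5 of 15. Lists of no lineage also stood high, with 26 of 27 glycolysis and hypoxia genes. The share over all protein-coding genes was not taken, so these counts have no reference. In bulk libraries, fewer cells of a type and less open chromatin per cell cannot be told apart. The share of each cell type in the gained regions was not tested. Full lists held up to 72525 peaks per library, and the median summit over regions shared by all lists held 27 to 58 reads per library.

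The letters under the gained regions could be read only where a region covered a promoter window, the 250 bases before and 50 bases after a RefSeq transcription start site. A gained region covered at least 150 bases of 50 such windows, which belonged to 42 regions. The windows below are shown because they carry the letters bound by the factors at the end of the IL-1 pathway. They were picked for their matches after the letters had been seen, except Tnip3 and Itgax, which also stand in the gene lists. Capitals mark AP-1 matches (TGACTCA on either strand) and NF-κB matches, each window runs 5′ to 3′ along its gene, and the sequences are from RefSeq, build GRCm38.p6.
4930471E19Rik: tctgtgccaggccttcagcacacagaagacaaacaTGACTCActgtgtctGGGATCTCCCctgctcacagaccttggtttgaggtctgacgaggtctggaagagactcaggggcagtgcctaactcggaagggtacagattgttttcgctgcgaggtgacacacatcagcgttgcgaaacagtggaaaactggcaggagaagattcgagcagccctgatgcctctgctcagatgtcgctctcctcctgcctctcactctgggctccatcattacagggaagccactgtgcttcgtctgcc
Gm33315: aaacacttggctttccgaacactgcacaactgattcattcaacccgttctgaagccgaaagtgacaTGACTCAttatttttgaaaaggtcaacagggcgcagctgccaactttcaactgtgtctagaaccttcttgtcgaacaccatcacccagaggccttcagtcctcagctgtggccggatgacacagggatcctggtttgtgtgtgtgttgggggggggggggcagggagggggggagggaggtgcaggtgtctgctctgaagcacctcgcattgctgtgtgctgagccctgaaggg
Tnip3: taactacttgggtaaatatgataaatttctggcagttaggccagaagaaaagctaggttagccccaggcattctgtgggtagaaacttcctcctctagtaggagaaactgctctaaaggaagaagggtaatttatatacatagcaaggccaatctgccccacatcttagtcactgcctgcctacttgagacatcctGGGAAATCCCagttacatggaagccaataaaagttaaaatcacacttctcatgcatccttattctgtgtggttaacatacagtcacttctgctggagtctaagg
Scel: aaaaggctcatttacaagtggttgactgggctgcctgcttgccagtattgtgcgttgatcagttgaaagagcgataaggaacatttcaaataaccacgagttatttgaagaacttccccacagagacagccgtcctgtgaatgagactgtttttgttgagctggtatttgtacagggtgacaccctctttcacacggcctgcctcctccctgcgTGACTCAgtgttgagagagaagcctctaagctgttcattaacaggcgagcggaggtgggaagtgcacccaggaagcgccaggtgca
Chit1: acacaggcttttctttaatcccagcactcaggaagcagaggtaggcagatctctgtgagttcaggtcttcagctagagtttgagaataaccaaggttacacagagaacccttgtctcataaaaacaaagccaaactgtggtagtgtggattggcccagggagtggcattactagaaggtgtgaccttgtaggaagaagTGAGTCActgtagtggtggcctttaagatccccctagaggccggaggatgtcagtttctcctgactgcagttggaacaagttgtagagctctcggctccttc
Dmkn: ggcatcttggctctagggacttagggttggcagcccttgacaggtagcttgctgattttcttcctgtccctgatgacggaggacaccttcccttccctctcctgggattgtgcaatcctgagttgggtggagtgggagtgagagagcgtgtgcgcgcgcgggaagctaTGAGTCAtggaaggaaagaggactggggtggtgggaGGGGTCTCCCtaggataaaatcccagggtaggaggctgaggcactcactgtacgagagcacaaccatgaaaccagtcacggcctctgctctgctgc
Itgax: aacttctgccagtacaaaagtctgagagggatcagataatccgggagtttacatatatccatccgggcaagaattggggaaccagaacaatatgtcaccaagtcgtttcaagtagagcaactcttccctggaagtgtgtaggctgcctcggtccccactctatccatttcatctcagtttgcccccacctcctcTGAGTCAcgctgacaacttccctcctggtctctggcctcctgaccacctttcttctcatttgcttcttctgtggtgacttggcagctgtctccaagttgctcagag

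The window of 4930471E19Rik, a gene model on the minus strand at chr10:120636058-120636357, held both matches, with AP-1 starting 215 bases and NF-κB 200 bases before the start site. Its region had a peak in all 8 full IL-1β lists, with 14.9 scaled summit reads at the lowest, 26.2 at the median and 44.3 at the highest. Scaled summit reads are the reads under a peak's highest point, worked back from the authors' fold and p and put on a common scale across libraries. Only 5 of 8 baseline lists held a peak there, with 7.52 to 17.4 reads and a median of 8.41, so the highest baseline value lay above the lowest IL-1β value. Dmkn, at chr7:30776155-30776454 and coding for the secreted epidermal protein dermokine, also held both, the AP-1 match 82 bases and the NF-κB match 46 bases before the start.

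Tnip3 codes for a partner of the deubiquitinase A20 that restrains NF-κB. Its window, at chr6:65590148-65590447, held an NF-κB match starting 54 bases before the start site and no AP-1 match. The region over it was called in 3 of 4 control and 4 of 4 diabetic IL-1β libraries and in no baseline library. Its summits ran from 20.7 to 31.7 reads after IL-1β in 7 libraries with a peak, against 9.61 and 15.9 in the 2 baseline libraries with one. Itgax, the integrin chain CD11c of dendritic cells, had its AP-1 match 56 bases before the start site at chr7:128129300-128129599. No full baseline list held a peak there, and 6 IL-1β lists did, at 18.6 to 27.4 reads.

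Gm33315 is a gene model beside Auh at chr13:52829022-52829321, Scel codes for the cornified envelope protein sciellin at chr14:103513091-103513390, and Chit1 codes for a chitinase of macrophages at chr1:134110992-134111291. Their AP-1 matches started 184, 36 and 52 bases before the start site. Gm33315 has another start site under the same region, and the same match begins 10 bases after that one. Gm33315 and Chit1 were called in all 8 IL-1β libraries. Median scaled summit reads after IL-1β were 23.9, 16.5 and 20.3 in that order, against 13.4, 7.52 and 13.5 over the baseline libraries with a peak, which were 7, 5 and 5 of 8. At Chit1 the conditions overlapped, at 10.0 to 16.8 reads at baseline and 15.5 to 23.3 after IL-1β, and at Gm33315 and Scel they did not.

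AP-1 letters stood in many of the promoter windows under gained regions. They were present in 17 of 50 windows (34.0%), against 26 of 611 windows (4.26%) under the other regions called in 5 to 11 libraries, the only regions that the rule could have taken. Of 40 windows under regions that lost calls after IL-1β, 1 held them (2.50%), and of all 32851 windows 5.20% did. NF-κB letters were in 16% of windows under gained regions, 6.22% under the other regions called in 5 to 11 libraries, 2.50% under lost regions and 4.51% of all windows. Some windows overlap each other, so the same count was made per region over the part inside it. AP-1 then stood in 16 of 42 gained regions (38.1%, exact 95% interval 23.6 to 54.4) and in 4.01% of 548 other regions.

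The other motifs showed gaps in both directions. C/EBP letters (TTGCNNAA), the site of granulocyte regulators, were in 16% of windows under gained regions and 14.2% under the other regions called in 5 to 11 libraries. RUNX letters (TGTGGTT) were in 10.0% and 7.04%, GATA letters (AGATAA) in 12% and 13.1%, and PU.1 letters (GAGGAAGT) in 4.00% and 4.75%. The E-box CACGTG was in 0 of 50 windows, against 6.22%, and the GC box GGGCGG in 36.0%, against 46.5%. Per region, over the part inside it, the GC box was in 31.0% of gained and 44.3% of the other regions, C/EBP letters in 8 of 42 and 12.4%, and RUNX letters in 5 of 42 (11.9%) and 6.02%. Over all 32851 windows these shares were 10.8%, 5.27%, 11.2%, 3.20%, 7.15% and 35.7% for C/EBP, RUNX, GATA, PU.1, E-box and GC box. Both strands were searched, and no pattern contains another. A match is a description of letters and says nothing of a bound factor.

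**Figure D1:**
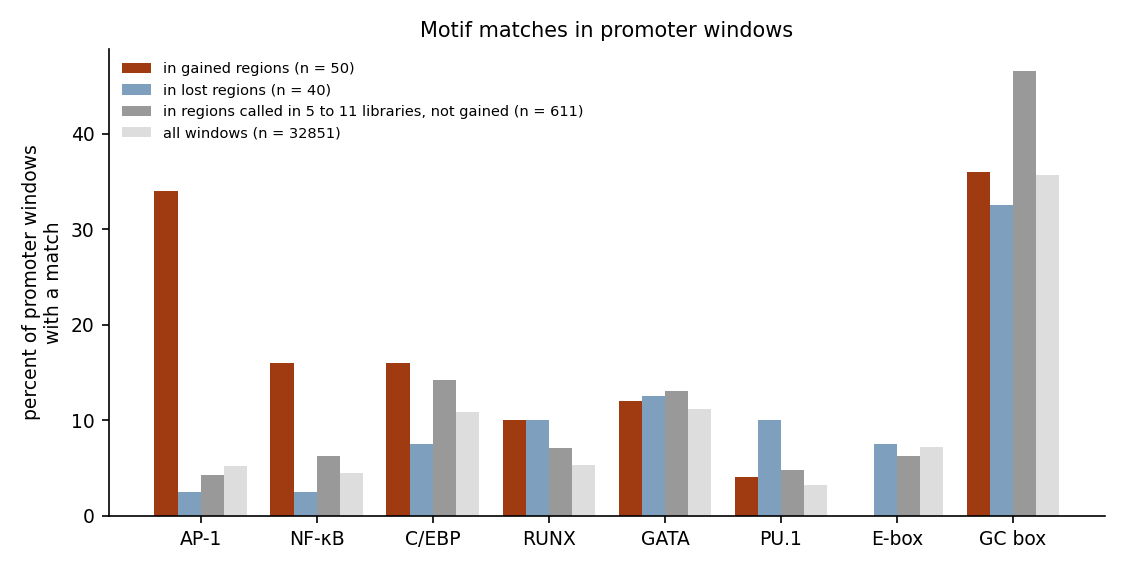
Percent of promoter windows (vertical axis) with a match to each of 8 motifs (horizontal axis), for windows under gained regions, lost regions, the other regions called in 5 to 11 libraries, and all windows; n is the number of windows. AP-1 reaches 34.0% under gained regions and 2.50% to 5.20% in the other sets, while C/EBP and GATA differ by a few percent between gained and other partly called regions.

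The gained regions were 1.93% of all regions and 9.48% of the 13128 regions called in 5 to 11 libraries. The mirror rule, at least 5 fewer IL-1β than baseline libraries, took 837 regions (1.30%). That order rests on the equal cut, since full lists of unequal length gave 921 gained and 2545 lost regions. Among the gained regions 89 were called in all 8 IL-1β libraries and no baseline library, 224 differed by 7 libraries, 381 by 6 and 550 by 5. Just inside the threshold, the 550 regions were called on average in 6.26 IL-1β and 1.26 baseline libraries. Just outside it, the 991 regions with a difference of 4 were called in 5.53 and 1.53.

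Control baseline libraries called 269, 90, 115 and 109 of the 1244 gained regions, a mean of 146 ± 82.9 (SD, n = 4). Diabetic baseline libraries called 171, 128, 93 and 158, a mean of 138 ± 34.7 (SD, n = 4). After IL-1β the control libraries called 1105, 880, 1071 and 1089, and the diabetic ones 1042, 1078, 1118 and 1066. Baseline and IL-1β libraries did not overlap, which the rule makes likely. Control replicate 1 stood above the other baseline libraries, and control replicate 2 below the other IL-1β libraries.

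Most gained regions were weak peaks, and most had a peak in some full baseline list as well. A called gained region had a median rank at the 29.8th percentile of its library's kept peaks after IL-1β, with 85.1% of calls below the middle of the list, and at the 15.4th percentile at baseline. In the full lists, 55.0% of the 8819 baseline library and region pairs without a call held a weaker peak. No baseline library called 562 of the gained regions, but only 76 (6.11%) also lacked a peak in every full baseline list. At full length 296 regions (23.8%) still differed by 5 or more libraries, and 200 (16.1%) differed by 0 or fewer.

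The equal number of peaks per list also moves with these counts. The weakest peak kept had a −log10 p of 3.55 in control IL-1β replicate 2, whose whole list was kept, and of 11.8 in control baseline replicate 3. In the full lists 1011, 671, 947 and 594 of the gained regions had a peak in the control baseline libraries, and 585, 841, 885 and 451 in the diabetic ones. After IL-1β the counts were 1238, 880, 1205 and 1229 in control and 1198, 1236, 1202 and 1186 in diabetic libraries. The groups then overlapped through control IL-1β replicate 2, which at 880 lay below 3 baseline libraries. Baseline lists were on average longer, at 61699 ± 8759 peaks (SD, n = 8), than IL-1β lists, at 53304 ± 9760 (SD, n = 8).

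**Figure D2:**
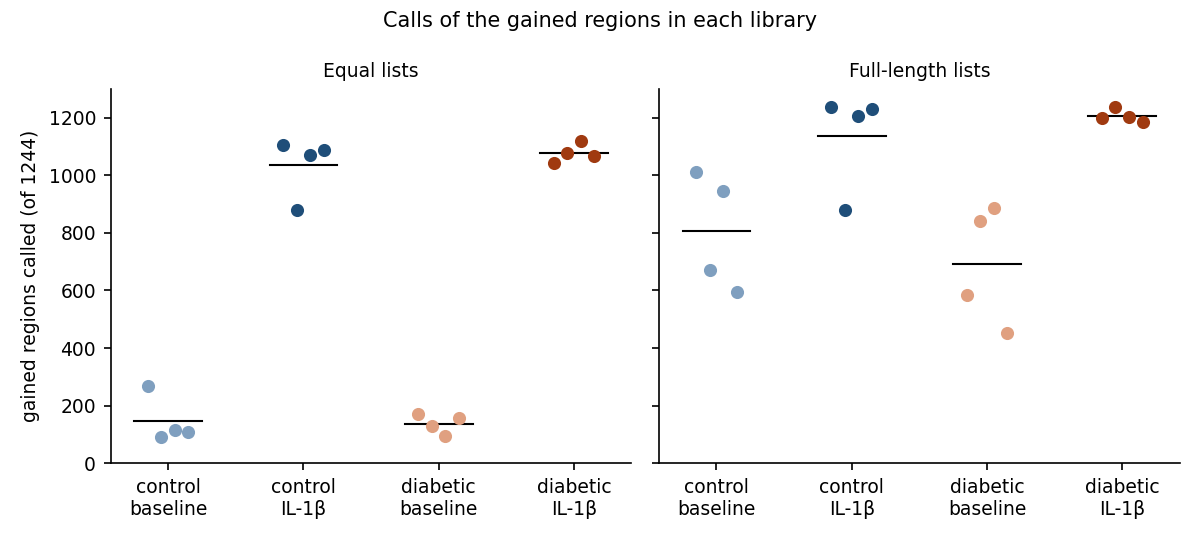
Number of the 1244 gained regions called in each library (vertical axis), by group, with 1 point a library and a line at the group mean; the left panel uses equal lists and the right panel the full lists. On the left every IL-1β library (880 to 1118) lies above every baseline library (90 to 269), and on the right control IL-1β replicate 2 (880) lies among the baseline libraries (451 to 1011).

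Where a gained region had a summit in all 16 full lists, its reads can be followed without missing values. This held for 124 regions. Their scaled summit reads had a median of 13.6 at baseline and 22.1 after IL-1β. The median log2 change was 0.63, with a range of 0.18 to 2.07, while over all 24941 regions with a summit in every list it was 0.03. The 113 regions just outside the threshold, with a difference of 4, had a median of 0.47.

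The 20 leading regions were all called in 8 against 0 libraries. Ties were broken by the authors' mean −log10 q after IL-1β, with at most 1 region per nearest gene, so the order is not by size of gain. Most of the 20 lay over 1 kb from a gene end, as did most gained regions and most other regions called in 5 to 11 libraries. The first of the 20 was inside Kdm1a, the histone demethylase LSD1, at chr4:136569990-136570592, 19457 bp from the gene's nearer end. Its scaled summit reads after IL-1β were 24.4 at the lowest, 40.0 at the median and 50.5 at the highest, and the 3 baseline libraries with a peak lay between 6.68 and 7.85. The values of the 2 conditions did not overlap. A region 14808 bp from Slc4a1ap, which codes for an adaptor of the anion exchanger, at chr5:31576563-31577050 ran from 30.9 to 54.0 with a median of 42.2 after IL-1β. Its 5 baseline peaks ran from 10.4 to 14.9, again below every IL-1β library.

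Hspb7, a small heat shock protein gene, had a region 205 bp from its end at chr4:141425515-141426369 with a peak in all 16 full lists. There the baseline reads ran from 7.44 to 12.8 with a median of 9.92, and the IL-1β reads from 19 to 44.3 with a median of 34.5. The region was thus uncalled at baseline only through the equal cut. Tomm20, the mitochondrial import receptor, lay 48425 bp from its region at chr8:126881777-126882239, where 3 baseline peaks of 5.61 to 7.07 reads stood against 25.7 to 47.8 after IL-1β. The region near Cd9, a tetraspanin, at chr6:125433651-125434109 had 7 baseline peaks with a median of 16.1 and IL-1β values of 30.9 to 41.7.

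Others of the leading regions lay at Cflar, Rptor and Eif4e. Inside Cflar, the gene of c-FLIP, which blocks caspase-8 at death receptors, the region at chr1:58742353-58742982 had 2 baseline peaks of 9.48 and 11.8 reads. After IL-1β it ran from 27.1 to 41.8 with a median of 34.1. The region inside Rptor, a subunit of the growth kinase complex mTORC1, at chr11:119715751-119716289 ran from 16.2 to 30.7 after IL-1β, above its 5 baseline peaks of 5.01 to 10.3. The region at the end of Eif4e, the cap-binding translation factor, at chr3:138526264-138526620 had 1 baseline peak of 27.5 reads and IL-1β values of 34.6 to 55.2.

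The others of the 20 leading regions were nearest to Adgrl4, Syne3, Inf2, Zmynd8, Maml3, Traf1, Myo1f, Slc37a2, Heatr5a, Rem2, Tfeb and Gm46382. Maml3 is a co-activator of Notch, Inf2 a formin that builds actin filaments, Myo1f a myosin of myeloid cells and Tfeb a regulator of lysosome genes. At Myo1f the region at chr17:33564575-33565004 ran from 45.4 to 65.0 reads after IL-1β, against 17.6 to 23.2 in 5 baseline libraries. At Maml3 the region at chr3:51788707-51789323 had peaks in all 16 full lists, at 8.83 to 12.2 at baseline and 17 to 29.4 after IL-1β.

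**Figure D3:**
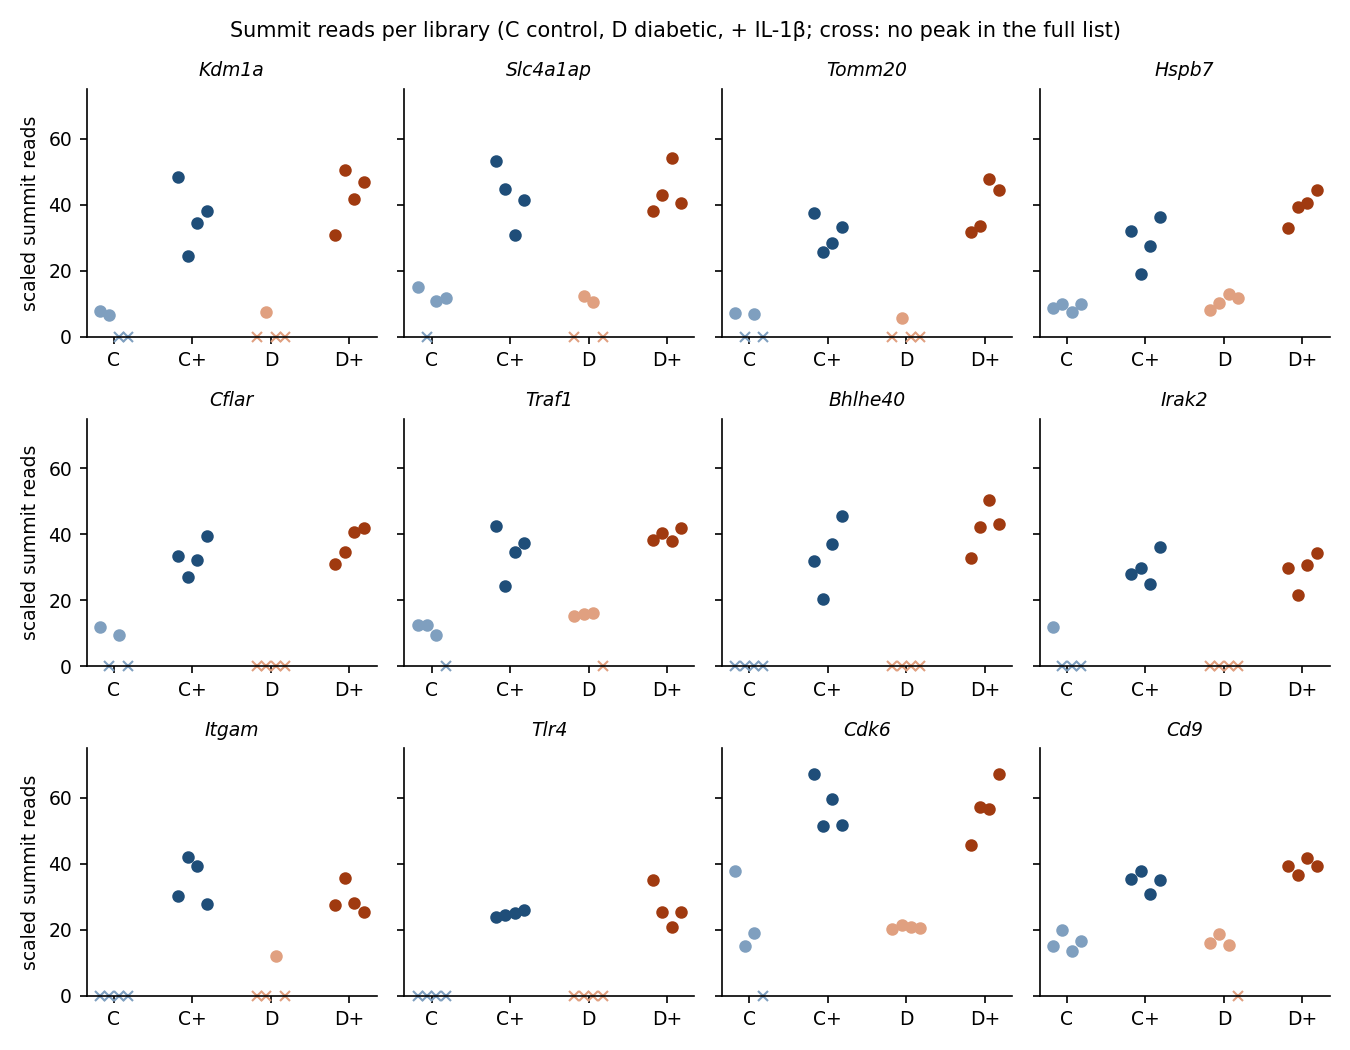
Scaled summit reads (vertical axis) in each library for 12 gained regions, titled by nearest gene, with 1 point a library; C is control, D diabetic, + is IL-1β, and a cross at the foot marks a library whose full list held no peak, which is not a measured 0. In all 12 panels each IL-1β point lies above each baseline point, and at Bhlhe40 and Tlr4 no baseline library had a peak.

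Counts for gene lists were taken over regions within 10 kb of a listed gene, and are read against the 1.93% of all regions and 9.48% of regions called in 5 to 11 libraries that were gained. Over all 26 lists, 84 of 2696 regions were gained (3.12%), and 15.4% of the 545 that could have been. The median difference in calling libraries was 0 in every list, as over all regions. No list was tested.

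At the top of the pathway, receptor and proximal signalling genes had 4 gained regions of 138 and 6 lost ones. Of the 4, 3 lay inside Irak2, a kinase of the receptor complex, and 1 inside Ikbkb, the kinase subunit that marks the inhibitor of NF-κB for destruction. The Irak2 region at chr6:113675193-113675605 was called in 8 IL-1β and 0 baseline libraries, with reads of 21.5 to 36.2 (median 29.7) and a single baseline peak of 11.8. The Irak2 region at chr6:113661105-113661928 had a peak in all 16 full lists, and there the conditions overlapped, at 18.9 to 37.2 reads at baseline and 32.7 to 53.2 after IL-1β. NF-κB subunits and inhibitors had 1 gained region of 65, inside Rel, the gene of the c-Rel subunit, and only 5 could have been gained.

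The brakes and adaptors of the pathway had the highest share of any list, 10 of 126 regions (7.94%) and 10 of the 27 that could have been gained (37.0%), at 8 of 21 genes. Traf1, an adaptor of TNF receptors, held a pair of gained regions, at chr2:34958060-34958477 and chr2:34958542-34958914. The first ran from 24.4 to 42.5 reads after IL-1β (median 38.1), above its 6 baseline peaks of 9.48 to 16, and the second from 27.6 to 42.9, above 3 baseline peaks of 10.0 to 16.2. Zc3h12a, the ribonuclease Regnase-1, also had a pair of gained regions. Single ones lay at Sqstm1, Tnip3, Zfp36l2, Otulin, Tnfaip2 and Traf2. The list had 2 lost regions.

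AP-1 and immediate early genes, which code for the first transcription factors and phosphatases made after a stimulus, had 8 gained regions of 171 (4.68%) and 2 lost ones. They lay at Bhlhe40, Ier2, Ier3, Klf2, Nr4a2, Egr1, Fosb and Dusp16. Inside Bhlhe40, a repressor of the helix-loop-helix family, the region at chr6:108665506-108665992 had no peak in any full baseline list and 20.3 to 50.3 reads after IL-1β, with a median of 39.5. Cytokine and chemokine genes had 2 gained regions of 104, near Tgfb1 and Il1a. Jak, Stat and Socs genes had 1 of 113, at Tyk2, and interferon response genes had 1 of 90, at Irf2, beside 5 lost ones. Of these 2 lists, 19 and 15 regions could have been gained.

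Gained regions stood at genes of mature myeloid cells, as they did at genes of several other lists. Mature neutrophil genes had 8 gained regions of 167 (4.79%) and 1 lost, among them regions at Itgb2, Itgam (2 regions), Padi4, Ngp, Cyba and S100a8. Monocyte and macrophage genes had 6 of 95 (6.32%) and 2 lost, at Tlr4, Fcgr3, F13a1, Slc11a1, Cx3cr1 and Lyz2. The region 3660 bp from Fam207a and within 10 kb of Itgb2, the shared integrin chain CD18, at chr10:77520584-77520908 had no peak at baseline in any full list. After IL-1β its reads ran from 35.2 to 66.3 with a median of 46.1. Tlr4, the receptor for endotoxin, had no baseline peak either at chr4:66828652-66828992 and ran from 20.9 to 35.0 after IL-1β.

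Itgam, the integrin chain CD11b, had gained regions on either side, at chr7:128058627-128058950 and chr7:128118986-128119421. The first had 1 baseline peak of 12 reads and IL-1β reads of 25.3 to 42.0, and the second had no baseline peak and 15.9 to 31.0. Granulocyte and monocyte regulators had 4 gained regions of 158, at Runx1, Il6ra, Runx2 and Spi1, and as many lost. Primary granule and progenitor genes had 0 of 42, of which only 9 could have been gained. Gr1, a surface marker of neutrophils and some monocytes, was among the depletion targets, and the part of cell composition in these counts was not tested.

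Genes of other lineages varied. Erythroid genes had 0 of 94, T and NK cell genes 0 of 50, megakaryocyte genes 1 of 59, and mast cell and basophil genes 1 of 62. Only 24, 2, 11 and 11 regions of these lists were called in 5 to 11 libraries and could have been gained. Beside a share of 9.48%, a count of 0 or 1 of so few says little for any of these lists, and none was tested. B cell genes had 3 of 39 (7.69%), at Dntt, Il7r and Cd79a, dendritic cell genes 3 of 105, and stroma and endothelium genes 2 of 63. Here 13, 23 and 15 could have been gained. Stem cell genes had 6 of 124 (4.84%), at Mllt3, Fli1 (2 regions), Egr1 and Erg (2 regions), beside 2 lost, and 33 could have been gained. Fli1 and Erg are ETS factors of blood stem cells.

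Among metabolic and stress lists, sterol synthesis and uptake had 6 gained regions of 92 (6.52%) and 0 lost. Among them were 2 at Abcg1, which exports cholesterol, 1 at Fdft1 and 1 at Mvd, whose region is also the one counted for Cyba. Glycolysis and hypoxia genes had 6 of 176, heat shock and oxidative stress genes 2 of 95, glucocorticoid response genes 3 of 77 and circadian clock genes 2 of 99. Adhesion and actin genes had 10 of 296 (3.38%), among them 2 at Myh9, a non-muscle myosin. Cell cycle entry genes had 1 of 156, inside Cdk6, the kinase that starts the cell cycle, at chr5:3501596-3502130. That region ran from 45.6 to 67.1 reads after IL-1β and from 15 to 37.7 in 7 baseline libraries, the highest of which was control replicate 1.

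Several genes had more than 1 gained region. Within 50 kb, 994 protein-coding genes were the nearest gene of 1121 gained regions, 889 of them with 1 region and 17 with at least 3. Dock10, a guanine nucleotide exchange factor, had 5 of its 27 regions gained, B4galt1, a galactosyltransferase, 4 of 13, Foxp1, a forkhead factor, 4 of 53, and Itpkb, an inositol trisphosphate kinase, 4 of 21. Another 13 genes had 3 each, among them Actr3, Auh, Tec, Irak2, Smad7 and Arhgef3, which the naming rule took. One of the B4galt1 regions, at chr4:40846559-40846865, had no peak in any full baseline list and 23.4 to 41.8 reads after IL-1β. Long genes hold more regions, so these counts stand beside the genes' own totals, and 94 genes had both a gained and a lost region.

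Gained regions had another gained region nearby in a larger share than lost regions had another lost one. Another gained region was within 10 kb of 92 of the 1244 (7.40%, exact 95% interval 6.00 to 8.99), while 2.15% of lost regions had another lost region that near (1.28 to 3.38). Within 50 kb the shares were 21.9% and 9.92%. There are more gained than lost regions, which by itself raises the first share.

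By position, 118 gained regions (9.49%, exact 95% interval 7.91 to 11.3) lay within 1 kb of an end of a protein-coding gene. Of all regions 21.1% did, and of regions called in all 16 libraries 47.1%. Regions called in 5 to 11 libraries that were not gained, at 10.8%, and lost regions, at 10.6%, were within the interval of the gained ones. Inside gene bodies and over 1 kb from their ends lay 50.5% of gained regions and 49.5% of the other regions called in 5 to 11 libraries. Between genes lay 40.0% and 39.8%.

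Gained regions had a median width of 405 bp, against 372 bp in the other regions called in 5 to 11 libraries and 755 bp in those called everywhere. The median distance to the nearer gene end was 14708 bp, against 14573 bp in the other partly called regions and 19861 bp in lost regions. No gene body lay within 50 kb of 123 gained regions (9.89%). Exons and introns were not used here.

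**Figure D4:**
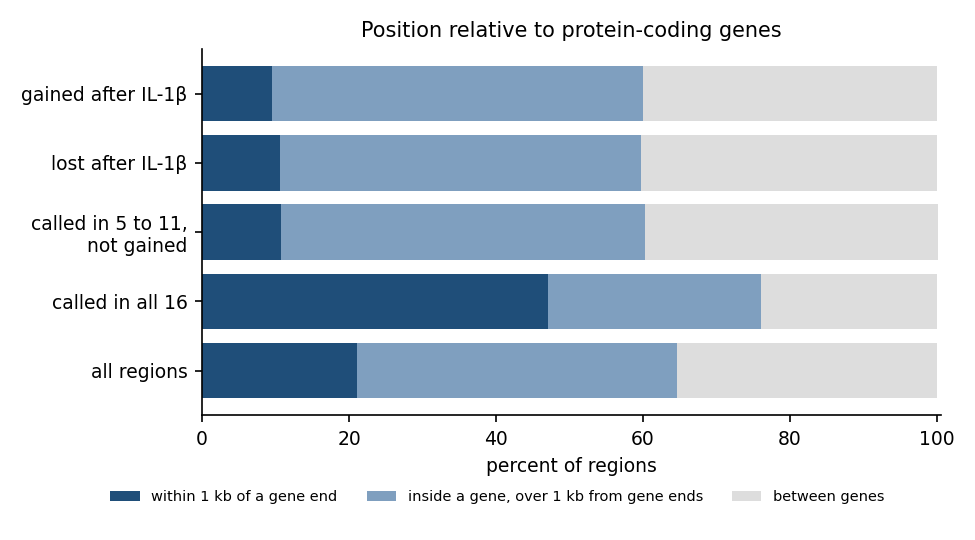
Percent of regions (horizontal axis) within 1 kb of a gene end, inside a gene but over 1 kb from gene ends, or between genes, for 5 sets of regions. Near a gene end lie 9.49% of gained regions, 10.6% of lost regions and 10.8% of the other partly called regions, against 47.1% of regions called in all 16 libraries.

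Both control and diabetic mice showed the gains, in part because the choice requires it. The rule requires a net gain of at least 1 of 4 libraries in each phenotype, and 1148 gained regions (92.3%) had a net gain of at least 2 in both. In 528 (42.4%) it was at least 3 in both. The net gain was equal in 304 regions, larger in control mice in 407 (32.7%) and larger in diabetic mice in 533 (42.8%). Control IL-1β replicate 2, the shortest list, called the fewest gained regions of the IL-1β libraries (880). Control baseline replicate 1 called the most at baseline (269). Both lower the net gain in control libraries, and their part in this imbalance was not tested. It was 4 in control and 1 in diabetic libraries in 40 regions, and 1 and 4 in 56.

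**Figure D5:**
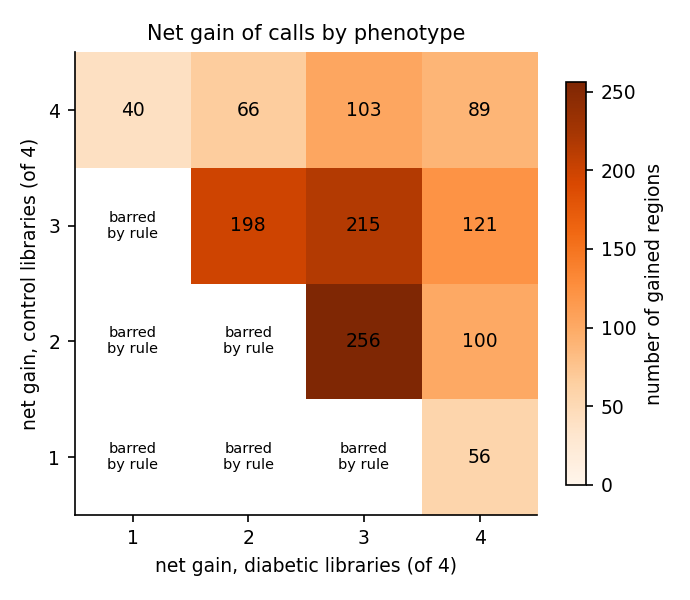
Number of gained regions for each pair of net gains, with the net gain in diabetic libraries on the horizontal and in control libraries on the vertical axis (IL-1β minus baseline libraries, of 4); empty cells cannot occur under the rule. The largest cells are 256 regions at control 2 and diabetic 3 and 215 at 3 and 3, and 89 regions had 4 in both.

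Gains can also be counted within mice, but from the same calls that chose the regions, so these counts are no separate support. In the 4 control mice, 842, 793, 958 and 985 of the 1244 regions were called only after IL-1β, and in the 4 diabetic mice 880, 951, 1027 and 910. Between 1 and 9 regions per mouse were called only at baseline. The control range enclosed 3 of the 4 diabetic values.

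Regions can also be chosen in 1 phenotype and looked up in the other, which the choice did not use. Of 1303 regions with a net gain of at least 3 in control mice, 1060 (81.4%) had a net gain in diabetic mice and 61 (4.68%) a net loss. Over all 64318 regions 22.8% had a net gain in diabetic mice. Of the 64318, 19209 were called in all 16 libraries and could not gain, which lowers any share taken over all regions. Of 1537 regions with a net gain of at least 3 in diabetic mice, 1200 (78.1%) had a net gain in control mice, where 19.7% of all regions had one. Of 1466 regions with a net loss of at least 3 in control mice, 11.3% had a net gain in diabetic mice.

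Regions with the most unequal gain were led by these. On the diabetic side stood Cx3cr1, a chemokine receptor of monocytes, with its region at chr9:120049353-120049761, and regions near Sema4a, Bicral, Fhdc1 and Rnf144a. The Cx3cr1 region was called in 3 control baseline libraries and 0 diabetic ones, and in all 8 libraries after IL-1β. Full lists narrowed that gap, since 7 of 8 baseline lists held a peak, at 9.19 to 20.4 reads. On the control side stood regions near Cdk15, Cytip, Arhgef3, Hes1 and Tmco5. The Arhgef3 region, at chr14:27249141-27249560, was called in 0 control and 3 diabetic baseline libraries and in all 8 after IL-1β.

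No region of the 64318 passed a test of calls in diabetic against control mice after adjustment. By Fisher's exact test with Benjamini-Hochberg adjustment, two-sided, 0 regions (0%) passed over all libraries, 0 over baseline and 0 over IL-1β libraries. The test over all libraries treats both libraries of a mouse as independent, so its p-values are too small. At an unadjusted p of 0.05 the counts were 524 (0.815%), 168 (0.261%) and 107 (0.166%). An exact permutation of the phenotype over the 8 mice called 0 regions for a difference in gain, and 104 (0.162%) unadjusted. With 4 against 4 the smallest p is 0.0286, so this design could not pass an adjustment over all regions. None of the unadjusted calls was a gained region, and under the rule for membership none could be.

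Summit reads were compared between phenotypes with limma on the log2 scale, over the 24941 regions with a summit in all 16 lists. No region passed an adjusted p of 0.05 at baseline, after IL-1β or for the difference in IL-1β change (0% in each). Unadjusted, 2942 (11.8%), 1085 (4.35%) and 416 (1.67%) regions passed. With IL-1β libraries alone, an alternative chosen after seeing the data, 0 of 28270 regions passed, and 2085 (7.38%) did unadjusted, 40 of them higher and 22 lower among 758 gained regions. In the first fit, of the 124 gained regions tested, 11 were higher and 0 lower in diabetic mice at baseline, 5 higher and 1 lower after IL-1β, and 0 higher and 3 lower in the difference, all unadjusted. With background scaling these counts were 1 higher and 1 lower at baseline and 0 and 2 after IL-1β, and with cyclic loess 6 and 1, and 0 and 1. Their median diabetic minus control value was 0.15 at baseline and 0.11 after IL-1β, beside 0.07 and 0.04 over all regions. These medians turned to -0.08 and -0.14 when libraries were scaled by background reads, beside -0.15 and -0.21 over all regions, so their direction rests on the scaling. On simulated data the test of the difference found 52 of 200 regions changed 2-fold, so most changes of that size were missed there. The simulation gave all regions 1 fixed spread, took libraries of a mouse as independent and drew the changed regions from all 24941. Gained regions hold fewer reads than most of these, so the share that the test would find among them was not measured.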

How the data were processed

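The 16 deposited files are peak lists, 1 per library, with the authors' summit offset (other), score, fold (a ratio over background) and −log10 p and q. Build mm10 and, in no given order, MACS2 2.1.1, Bowtie2 2.2.6, edgeR, DiffBind 2.4.8, FastQC 0.11.3 and Trim Galore 1.8 are named, per the submitters' processing notes; read shifting and removal of duplicates are not given in the sources used here. Reads are 50-bp single reads per the labels.

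From each list the strongest distinct peaks, as many as the shortest list holds, were merged where they overlapped by at least 1 bp. Summit reads were solved from the authors' fold and −log10 p (Poisson, tolerance 0.001, tested on 4794 simulated summits) and scaled by the median over regions with a summit in all lists. Reads are missing where no peak was listed. Medians over libraries with a peak are therefore too high for weak regions. Calls were compared with Fisher's exact and exact permutation tests (SciPy 1.17.1) and summit reads with limma 3.58.1, with Benjamini-Hochberg adjustment. Labels and mouse numbers set the groups, and same-numbered libraries come from 1 mouse. Their deviations correlated by -0.04 to 0.42. Intervals are exact binomial (95%) and cover counting error only. Fisher p-values within a stimulation rest on 1 library per mouse. The main limma fit shared 1 spread per region over all 4 groups, so its p-values treat both libraries of a mouse as independent. Its test of the difference in IL-1β change did not use the pairing, which the fit with a mouse block did.

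The members, gene lists and naming rules were chosen with earlier results of these data known. Named were the 20 regions with the largest difference, up to 3 per list, the 10 genes with the most members and 5 per side of unequal gain. Ties among single regions were broken by mean −log10 q over the IL-1β libraries. Gene positions come from RefSeq (GRCm38.p6). Alternatives were other list lengths, ranking by fold, fixed windows, each library left out, a mouse block and other scalings. Single regions at a few listed genes are not reported here.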

Additional observations from a re-analysis of the deposited data

Results flagged for a closer look

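A library far from the others of its group was looked for in 35 sets of 4 to 10 values, and 6 were found; chance gives about 1 in 20. Control baseline replicate 1 called 269 gained regions, above the other 3 libraries of its group. Control IL-1β replicate 2 had 880, below the other 3, both in the equal and in the full lists, since its whole list was kept. The same library had the lowest value at the first Traf1 region, 24.4 scaled summit reads. Diabetic IL-1β replicate 1 had the highest value at Tlr4, 35.0, and control baseline replicate 1 the highest baseline value at Cdk6, 37.7.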

How the results depend on the processing

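The number of gained regions was 1244. Keeping 20000 peaks per list gave 647, of which 88 were among the 1244, and keeping 30000 gave 1015 with 570 shared. Full lists of unequal length gave 921 with 295 shared, and 2545 lost regions. Ranking by fold gave 1199 with 713 shared, and 200-bp windows 1407 with 1230 shared. Which regions count as gained therefore moved with the cut more than how many. Leaving out 1 library gave 914 to 1084 regions, a share with a net gain of at least 2 in both phenotypes of 89.5% to 93.6%, and a gene-end share of 9.05% to 10.1%. The gene-end share was 7.06% with full lists, 12.3% with 200-bp windows and 14.9% within 2 kb. An alternative chosen after seeing the data, start sites instead of gene ends, gave 9.32%. Of the 110 regions named by rule, 84 fell under a difference of 5 without turning negative with 20000 peaks, 69 with full lists, 40 when ranked by fold and 32 with 30000 peaks. A named region that no region of the alternative overlapped was counted here as a difference of 0. The difference in calling libraries turned to -1 at Xcr1 with 20000 peaks and to -1 at a Dock10 and an Itpkb region with full lists. The causes were not tested.

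The phenotype comparisons gave 0 regions under every alternative run, leaving out each library included. For the permutation of gains little else was possible, since the smallest p with 4 against 4 is 0.0286 over 64318 regions. The summit-read test of the difference found only 52 of 200 changed regions on simulated data. A repeated 0 therefore does not show that the phenotypes were alike. With the mouse as a replicate block, the difference in IL-1β change also gave 0 after adjustment and 848 unadjusted. Another alternative chosen after seeing the data, IL-1β libraries alone, tested 758 gained regions of 28270 and called 0, with 2085 (7.38%) unadjusted. The medians over gained regions turned to -0.08 at baseline and -0.14 after IL-1β with background scaling. Without control baseline replicate 2 the baseline median was 0.05.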
